A study of Homo sapiens with 17 samples.

Results

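The miR-29 family was measured through 4 microRNA hairpins, hsa-mir-29a, hsa-mir-29b-1, hsa-mir-29b-2 and hsa-mir-29c, which are all the rows named mir-29 in the deposited tables. They are 4 of 294 hairpins in the table of parental and dCTT cells and 4 of 1282 in the table of rescued cells, and all 4 were among the 336 hairpins with enough signal to be tested. The libraries hold short RNA from HCT116, an established human colon carcinoma line, and by its title the series asks about the need of Microprocessor for hemin in reading the apical loop of its substrates. Parental cells (1 library) were set beside cells whose DGCR8 gene had lost its CTT domain through CRISPR-Cas9 editing (dCTT, 1 library). Every rescued group was made in dCTT cells, so the controls carry the deletion too: wild-type DGCR8 (WT), its C352A form, its P351A form, the P351A form with an agent called ALA (not spelled out in the labels), and a mock rescue, each with 3 libraries. The columns taken as mock are headed as knockout cells in the deposited table. They were given to the mock group because it is the only one there without a rescue gene, so every comparison with mock rests on that assignment. Whether the replicates were separate cultures is not stated, so each p-value rests on a spread between libraries that may be technical only.

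Primary microRNA transcripts fold into hairpins that Microprocessor, a complex of the nuclease DROSHA and its RNA-binding partner DGCR8, cuts out in the nucleus. DGCR8 binds heme, and residues P351 and C352 lie in its heme-binding region. DICER then cuts off the apical loop to leave a short duplex, and 1 strand of it guides silencing of messenger RNAs that match its seed. miR-29 is known for silencing collagens and other matrix genes, the DNA methyltransferases DNMT3A and DNMT3B, and the survival gene MCL1, and it acts as a tumour suppressor in several cancers. The hairpins lie as a pair on each of 2 chromosomes, and each pair is made from a shared primary transcript.

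The mature guide strands are shown because both mir-29b rows part from mir-29a and mir-29c in the results. The mir-29b rows share their guide strand, so its reads could not have parted them by chromosome. Bases 2 to 8, the seed, are in capitals, 5′ to 3′, from RefSeq (GRCh38.p14).
hsa-miR-29a-3p: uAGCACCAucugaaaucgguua
hsa-miR-29b-3p: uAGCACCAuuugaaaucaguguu
hsa-miR-29c-3p: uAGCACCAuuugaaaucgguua
All 3 share 1 seed, and no other mature sequence in the RefSeq table has it. Counted from position 1 at the 5′ end, miR-29a-3p differs from miR-29c-3p by 1 substitution, C10U. It differs from miR-29b-3p by 4 over the first 22 bases, C10U, G18A, U21G and A22U. From miR-29c-3p to miR-29b-3p there are 3, namely G18A, U21G and A22U. The mir-29b-1 and mir-29b-2 hairpins give the same guide strand, so a read of miR-29b-3p cannot be assigned to either of them.

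The hairpins themselves are shown because Microprocessor acts on them and the study asks about their apical loop. The segment between both mature arms, which holds the loop, is in capitals (RefSeq, GRCh38.p14, minus strand in every case).
mir-29a, chr7:130876747-130876810: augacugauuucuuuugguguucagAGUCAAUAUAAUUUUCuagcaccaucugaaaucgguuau
mir-29b-1, chr7:130877459-130877539: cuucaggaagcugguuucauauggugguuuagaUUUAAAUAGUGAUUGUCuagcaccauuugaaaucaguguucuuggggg
mir-29b-2, chr1:207802443-207802523: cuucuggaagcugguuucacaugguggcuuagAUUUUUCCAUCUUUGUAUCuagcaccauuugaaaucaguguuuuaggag
mir-29c, chr1:207801852-207801939: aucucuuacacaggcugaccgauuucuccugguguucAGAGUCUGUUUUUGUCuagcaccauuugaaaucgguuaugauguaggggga
The capitals span 16 bases in mir-29a and mir-29c, 17 in mir-29b-1 and 19 in mir-29b-2. A UGU motif (letters UGU, given strand only) was in the segment of mir-29b-1, mir-29b-2 and mir-29c and not in that of mir-29a. The same letters were in 78 of the 191 tested hairpins that RefSeq lists with both arms (40.8%), whose segments had a median of 16 bases. These motif matches describe the letters and nothing about what binds there.

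The chromosome 7 pair lies 648 bases apart and the chromosome 1 pair 503 bases apart. In GENCODE release 29, mir-29b-2 and mir-29c lie within an exon of the long noncoding RNA MIR29B2CHG on the same strand. mir-29b-1 lies within an exon of the noncoding RNA LINC-PINT on the same strand. LINC-PINT overlaps only the edge of mir-29a: it is annotated from base 130876809, and mir-29a spans 130876747 to 130876810. mir-29b-1 and mir-29a both lie in an intron of AC016831.6, on the same strand. Both also lie in an intron of LINC00513 on the opposite strand.

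Values below are scaled reads, the authors' read counts after 1 scale factor per library, and depth is the sum of recovered read counts over the listed hairpins. Depth was 5122793 in the parental and 168798 in the dCTT library. Mock libraries held 146023 to 587214 reads and WT libraries 660126 to 1470755. C352A libraries held 199133 to 1023184, those of P351A 1666688 to 2175294 and those with ALA 1191542 to 1941805. mir-373 was at 0 in all 6 P351A and P351A plus ALA libraries and between 1038 and 5176 scaled reads in the other 9 rescue libraries. These 2 sets of libraries therefore stand apart, and a difference between the sets cannot be told apart from one between rescue proteins wherever P351A or P351A plus ALA is set against mock, WT or C352A. Colon epithelial microRNA hairpins were all listed (6 of 6). Their sums were 944 to 2768 scaled reads in WT, 895 to 2173 in mock and 765 to 826 in C352A. In P351A they were 620 to 701, and with ALA 562 to 1008. Of 17 hairpins of other cell types 11 were listed, with sums of 1931 to 3661 in WT, 1094 to 1688 in mock and C352A together, 2350 to 3513 in P351A and 1495 to 2555 with ALA. Their part in the results was not tested. In these bulk RNA samples, fewer cells with a microRNA and less of it per cell cannot be told apart.

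All 4 members were far higher in parental than in dCTT cells, with 1 library each and no replicate check. mir-29a had 13706 scaled reads in the parental library and 214 in the dCTT library. mir-29b-1 had 368 and 14, mir-29b-2 had 350.4 and 13, and mir-29c had 133 and 4. mir-29a was 64.0-fold higher in the parental library (95% exact counting interval 56.0 to 73.6), mir-29b-1 26.3-fold (15.5 to 48.3), mir-29b-2 27.0-fold (15.6 to 50.9) and mir-29c 33.2-fold (12.8 to 123). The intervals cover counting error only, and 4 dCTT reads of mir-29c set the widest. On the log2(value + 1) scale the differences were 5.99, 4.62, 4.65 and 4.74, where the median of the 294 listed hairpins was 5.54 and their quartiles 4.69 and 5.94. mir-29a was thus above the upper quartile (place 68 from the highest) and mir-29b-1 and mir-29b-2 below the lower quartile (places 228 and 226). A total of 276 hairpins were higher and 18 lower in the parental library. Every hairpin listed here had at least 50.7 scaled reads in the higher of its 2 libraries. Both mir-29b rows and mir-29c reached that in the parental library only. The listing can thus favour hairpins high in parental cells, so these counts, the median and the quartiles are not a neutral background. The choice of scale also sets the size of the difference: with equal totals mir-29a differed by 1.72 and mir-29b-1 by 0.43 on the log2 scale.

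**Figure D1:**
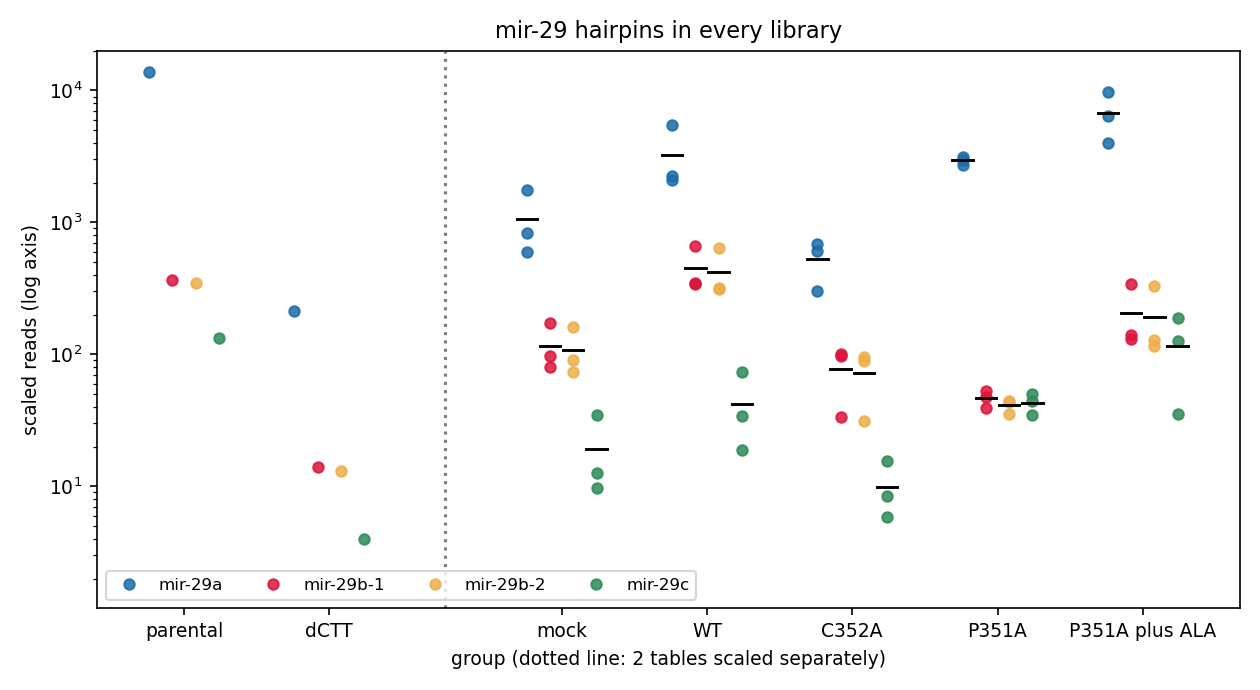
Scaled reads (log axis) of the 4 mir-29 hairpins in every library, by group; points are libraries and black bars are means of 3 libraries. mir-29a is highest in all 17 libraries, and the distance between mir-29a and both mir-29b hairpins is widest in P351A, where mir-29b-1 is at 39.0 to 52.7 and mir-29a at 2735 to 3132.

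mir-29a, the most abundant member, had 1773, 596 and 832 scaled reads in mock libraries a, b and c, and 5439, 2086 and 2245 in the WT libraries. It had 300.1, 683 and 605 in C352A. All WT libraries lay above all mock libraries, while C352A overlapped mock. In P351A it had 2735, 2992 and 3132, and in P351A plus ALA 6393, 9703 and 3979.7. P351A lay within the WT range with the narrowest spread of any group, and P351A plus ALA lay above P351A in every library. Ranked by mean, its order was C352A (529 ± 202, SD, n = 3), mock (1067 ± 623), P351A (2953 ± 201), WT (3257 ± 1892) and P351A plus ALA (6692 ± 2873). Of these neighbours only mock and P351A differed beyond their spread. Among the 1282 listed hairpins mir-29a took places 37 to 40 in P351A, 29 to 48 with ALA, 52 to 62 in WT, 54 to 69 in mock and 59 to 79 in C352A.

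mir-29b-1 had 172, 80.5 and 97.8 scaled reads in mock, and 662, 339 and 348 in WT. C352A libraries had 33.4, 97.6 and 99.8, and those of P351A 39.0, 47.4 and 52.7 in P351A. P351A here held the lowest mean of all groups, where mir-29a was near its WT level, and its libraries lay wholly below those of mock and WT. With ALA the values were 139, 343 and 131. The order of means was P351A (46.4 ± 6.94, SD, n = 3), C352A (77.0 ± 37.7), mock (117 ± 48.6), P351A plus ALA (204 ± 120) and WT (450 ± 184). No 2 neighbours in this order differed beyond their spread, although groups further apart did.

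mir-29b-2, on the other chromosome, had nearly the same values, from 31.1 scaled reads in a C352A library to 642 in a WT library. Its read count was 1 to 27 reads below that of mir-29b-1, in all 17 libraries, which is 3.02% to 15.7% of the mir-29b-1 reads (median 7.69%). Both rows are therefore taken as 1 signal and count as 1 piece of evidence, since reads of their shared guide strand cannot be told apart. Reads were not split by arm, so whether other reads add to either row was not tested.

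mir-29c is the least abundant member and rests on few reads, from 3 in a mock library to 163 with ALA. It had 35.0, 9.66 and 12.5 scaled reads in mock, 73.4, 19.0 and 34.2 in WT, and 5.87, 15.5 and 8.44 in C352A. In P351A it had 34.8, 49.8 and 44.4, and with ALA 127, 187 and 35.3. Mock and WT overlapped, while every P351A library lay above every C352A library. The order of means was C352A (9.95 ± 5.01, SD, n = 3), mock (19.1 ± 13.9), WT (42.2 ± 28.1), P351A (43.0 ± 7.59) and P351A plus ALA (116 ± 76.4), and no 2 neighbours differed beyond their spread.

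Wild-type DGCR8 was associated with more of 3 of the 4 members than mock. In the limma fit across all 336 hairpins on log2(value + 1), mir-29a rose by 1.62 ± 0.45 (SE, adjusted p = 0.00501). mir-29b-1 rose by 1.94 ± 0.46 (adjusted p = 0.00169) and mir-29b-2 by 1.96 ± 0.47 (adjusted p = 0.00189). mir-29c, at 1.11 ± 0.60 with a 95% interval from -0.15 to 2.37, did not pass (adjusted p = 0.111). Since 63.1% of all tested hairpins passed in this comparison and their median was 1.13, 3 of 4 is near the background. The rise depends on the scale. All 3 calls were kept centred on the median hairpin (mir-29a 0.91, adjusted p = 0.0232) and on Microprocessor-independent hairpins (1.55, adjusted p = 0.00327). With equal library totals mir-29a differed by 0.17 (adjusted p = 0.718), and with edgeR's TMM scaling by 0.30 (adjusted p = 0.427), so no member passed under either. The all-hairpin median of 1.13 became -0.28 and -0.13 under the last 2 settings. Without WT replicate 2 or without mock library a, mir-29c passed too (adjusted p = 0.0403 and 0.0275).

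C352A was lower than WT in all 4 members and did not differ detectably from mock. Against WT, mir-29a fell by 2.56 ± 0.45 on the log2 scale (SE, adjusted p = 6.89e-05) and mir-29b-1 fell by 2.62 ± 0.46 (adjusted p = 7.5e-05). mir-29b-2 fell by 2.62 ± 0.47 (adjusted p = 9.5e-05) and mir-29c fell by 1.87 ± 0.60 (adjusted p = 0.00976). The C352A libraries lay below the WT libraries in every member. The background was 65.5% of hairpins passing, with a median of -1.76, so the members moved with most hairpins. The fall of mir-29c was lost without WT replicate 1 (adjusted p = 0.0604), with equal totals (0.639) and centred on the median hairpin (0.433). With TMM scaling, which put the median of all hairpins at 0.11, no member passed and mir-29a was at -0.61 (adjusted p = 0.0986). Against mock none of the 4 passed in limma, where 14.9% of all hairpins did, and none had an unadjusted p under 0.05 or passed with edgeR (either scaling) or DESeq2. The values there were -0.94 for mir-29a (95% interval -1.89 to 0.00, adjusted p = 0.126), -0.67 for mir-29b-1, -0.66 for mir-29b-2 and -0.76 for mir-29c, beside a median of -0.66 over all hairpins; centring on the median hairpin or TMM turned the sign of both mir-29b values.

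In the P351A libraries both mir-29b rows, taken as 1 signal, parted from mir-29a and mir-29c. Against WT, mir-29b-1 fell by 3.19 ± 0.46 on the log2 scale (SE, adjusted p = 1.95e-05) and mir-29b-2 fell by 3.26 ± 0.47 (adjusted p = 1.98e-05). mir-29a was at 0.00 ± 0.45 (95% interval -0.94 to 0.95, adjusted p = 0.998) and mir-29c at 0.22 ± 0.60 (-1.04 to 1.48, adjusted p = 0.774). The interval of mir-29a spans almost 1 log2 unit on either side of 0. Passing was common here, at 54.5% of all tested hairpins, so the count of 2 of 4 members is near the background. Ordered by fold change, mir-29b-1 and mir-29b-2 took places 15 and 12 from the lowest of 336, and mir-29c and mir-29a places 42 and 65 from the highest. The median over all hairpins was -0.95. The fall of both mir-29b rows passed in all 17 alternatives run for it, with values from -3.36 to -1.70 for mir-29b-1 and from -3.44 to -1.78 for mir-29b-2. Centred on the median hairpin, or with TMM, mir-29a was called higher in P351A (1.00 and 1.50, adjusted p = 0.0185 and 0.000507), and so was mir-29c (1.22 and 1.63, adjusted p = 0.0456 and 0.0035); these settings put the median of all hairpins at 0.05 and 0.53.

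**Figure D2:**
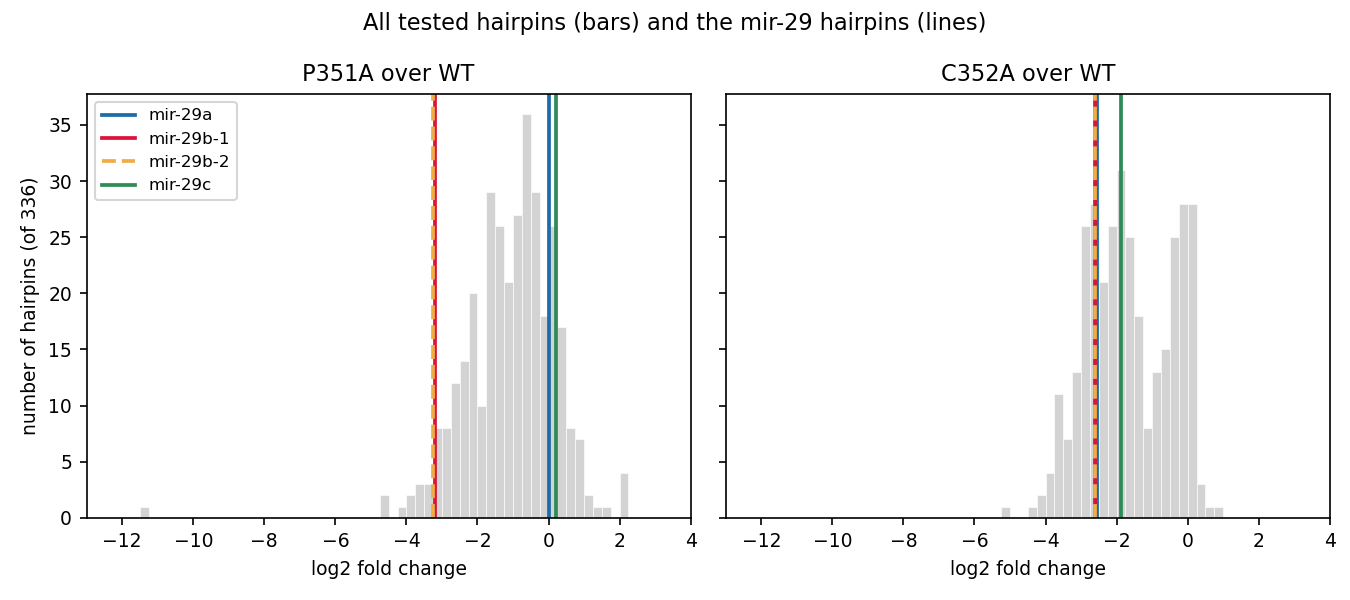
Number of tested hairpins (of 336) by log2 fold change in P351A over WT and in C352A over WT, as bars, with the 4 mir-29 hairpins as vertical lines. In P351A over WT the mir-29b lines lie near -3.2 on the left flank, while mir-29a lies at 0.00 and mir-29c at 0.22. In C352A over WT all 4 lie between -2.62 and -1.87.

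Against mock, P351A again divided the family. mir-29a rose by 1.62 ± 0.45 (SE, adjusted p = 0.00686), while mir-29b-1 fell by 1.25 ± 0.46 on the log2 scale (adjusted p = 0.0328) and mir-29b-2 fell by 1.30 ± 0.47 (adjusted p = 0.0306). mir-29c was at 1.33 ± 0.60 (adjusted p = 0.0727) and did not pass. It passed centred on the median hairpin (1.62, adjusted p = 0.00742) or on Microprocessor-independent hairpins (2.03, adjusted p = 0.00151), with TMM (1.30, adjusted p = 0.0271) and fitted on only these 2 groups (adjusted p = 0.012). In this comparison 48.5% of all hairpins passed, with a median of -0.03. The mir-29b falls were lost without mock library a (adjusted p = 0.125 for mir-29b-1), mock library c (0.0582) or any 1 of the P351A libraries (0.0555 to 0.0999), and mir-29c passed without mock library a (adjusted p = 0.0196). Centred on hairpins that bypass Microprocessor, mir-29b-1 was at -0.55 (adjusted p = 0.279).

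Set directly against C352A, P351A had more of mir-29a and mir-29c. mir-29a rose by 2.56 ± 0.45 (SE, adjusted p = 0.000147) and mir-29c by 2.09 ± 0.60 (adjusted p = 0.00862). mir-29b-1 was at -0.57 ± 0.46 (95% interval -1.55 to 0.40, adjusted p = 0.314) and mir-29b-2 at -0.64 ± 0.47 (adjusted p = 0.27). The background was 50.9% of hairpins passing, with a median of 0.56. The 2 mir-29b rows were called lower in P351A with equal totals (-1.46, adjusted p = 0.00574, for mir-29b-1), TMM (adjusted p = 0.0212) and centring on the median hairpin (adjusted p = 0.03). mir-29c did not pass with equal totals (adjusted p = 0.0633).

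ALA treatment of P351A cells was accompanied by more miR-29b. Both groups had mir-373 at 0, so the division by mir-373 does not run through this comparison. Whether the groups were prepared together is not stated in the labels, and mir-373 cannot show it. mir-29b-1 rose by 1.98 ± 0.46 over P351A alone (SE, adjusted p = 0.00206) and mir-29b-2 by 2.03 ± 0.47 (adjusted p = 0.00206). mir-29a was 1.09 ± 0.45 higher (adjusted p = 0.0548) with no overlap between groups, and mir-29c 1.13 ± 0.60 higher (95% interval -0.12 to 2.39, adjusted p = 0.123). How often groups did not overlap over all hairpins was not counted. In all, 47.6% of hairpins passed and their median was 0.81. Without P351A plus ALA replicate 3, mir-29a and mir-29c passed (adjusted p = 0.0245 and 0.0142). The mir-29b-1 call was kept with equal totals (1.21, adjusted p = 0.0263) and TMM (0.88, adjusted p = 0.0455) and lost under both centrings. Centred on the median hairpin mir-29b-1 was at 0.84 (adjusted p = 0.0677) and centred on the Microprocessor-independent hairpins at 0.22 (adjusted p = 0.673), and both settings turned the sign of mir-29a and mir-29c, as TMM did that of mir-29a. The all-hairpin median of 0.81 became -0.33 and -0.95 with these centrings. The level of mir-320a, a hairpin made without Microprocessor, was 72183 to 77467 scaled reads in P351A and 88662 to 95031 with ALA, beside 56997 to 68304 in mock, WT and C352A.

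Compared with mock and WT, the ALA-treated libraries kept the family divided. Over mock, mir-29a rose by 2.71 ± 0.45 (SE, adjusted p = 8.65e-05) and mir-29c by 2.46 ± 0.60 (adjusted p = 0.0023), where 58.3% of hairpins passed with a median of 0.88. mir-29c did not pass with equal totals (1.04, adjusted p = 0.116). Both mir-29b rows were at 0.73 and did not pass (adjusted p = 0.182 and 0.193), and they were below 0 under the other 4 scalings (both centrings, equal totals and TMM). Over WT no member passed in limma, where 33.9% of hairpins did, although all 4 had an unadjusted p under 0.05 and 1 passed with edgeR at the deposited scale, 2 with edgeR and TMM and 3 with DESeq2. In limma, mir-29a was at 1.09 ± 0.45 (adjusted p = 0.0639), mir-29b-1 at -1.21 ± 0.46 (adjusted p = 0.0521), mir-29b-2 at -1.23 ± 0.47 (adjusted p = 0.0533) and mir-29c at 1.35 ± 0.60 (adjusted p = 0.0837). These values are close to the threshold, and other scalings or leaving out 1 library carried members past it in the same directions: without WT replicate 1, mir-29a and mir-29c passed (adjusted p = 0.0124 and 0.0314), as they did without P351A plus ALA replicate 3 (0.034 and 0.0139), and without P351A plus ALA replicate 2 both mir-29b rows did (0.0187 and 0.0165). The comparisons with mock share the mock libraries, and those with WT share the WT libraries.

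**Figure D3:**
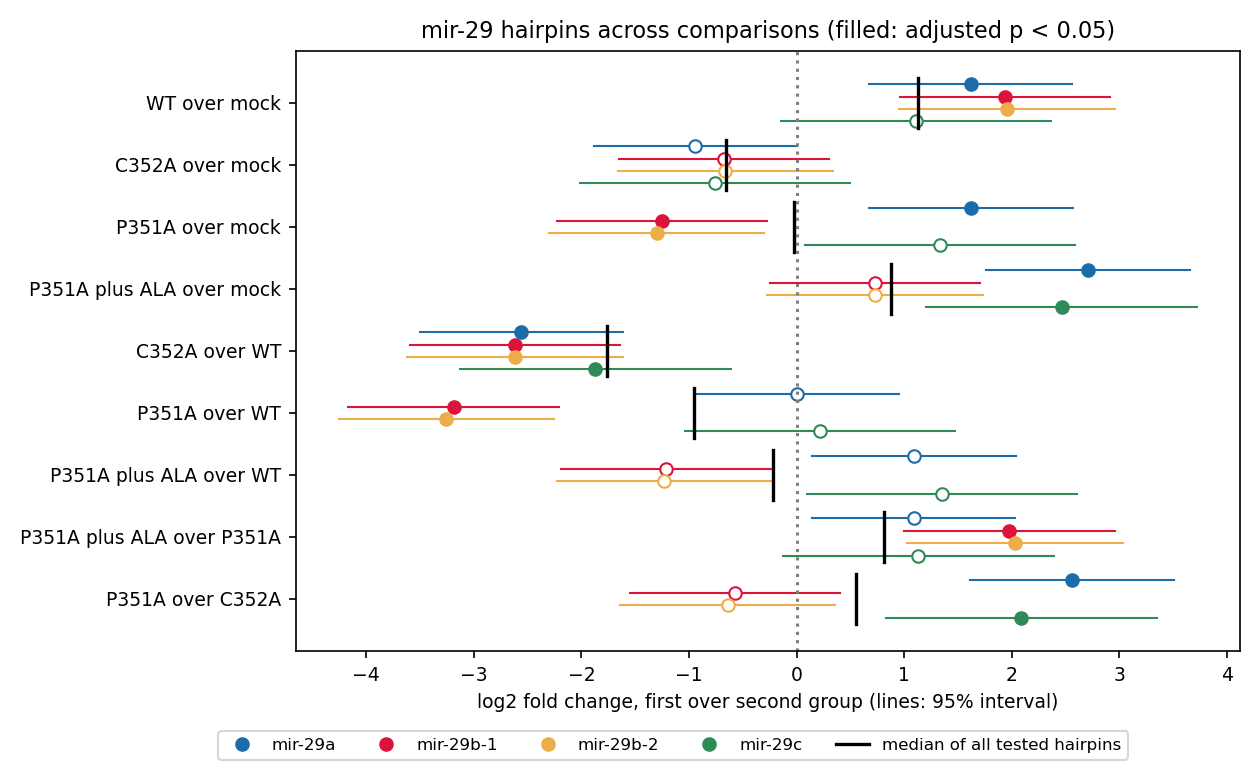
Log2 fold change of each mir-29 hairpin in the 9 comparisons of rescue groups, with 95% intervals as lines, filled points for adjusted p under the 0.05 threshold, and a black bar for the median of all 336 hairpins. The members keep together in WT over mock and C352A over WT, and the mir-29b points lie left of the mir-29a and mir-29c points in P351A over mock, over WT and over C352A.

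Ratios of scaled reads between members within a library do not depend on how libraries were scaled. The tests below used log2 ratios after adding 1 to each value, which leaves some dependence for low values. mir-29a over mir-29b-1, which are made from a shared primary transcript, was 6.15 to 8.22 in WT, 6.06 to 8.99 in C352A and 7.40 to 10.3 in mock. The P351A libraries had ratios of 59.4 to 70.2, and those with ALA 28.3 to 45.8. The first 3 groups overlapped each other, and each of the last 2 lay apart from every other group. mir-29c over mir-29b-2, the chromosome 1 pair by name, is taken against the same miR-29b signal as the first ratio. Neither ratio therefore measures a single pair, and they are not independent evidence. The second ratio was also higher in all 6 P351A and P351A plus ALA libraries than in the other 9. In this ratio these 2 groups overlapped and WT lay below mock. It was at 0.0608 to 0.114 in WT, 0.0882 to 0.188 in C352A and 0.130 to 0.219 in mock. The P351A libraries had 0.987 to 1.14 and those with ALA 0.305 to 0.992. In the other table the ratio of mir-29a to mir-29b-1 was 37.3 in parental cells, within the range of the ALA-treated libraries, and 15.3 in dCTT cells. That of mir-29c to mir-29b-2 was 0.379 and 0.308.

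Groups accounted for 97.5% of the variance of the log2 ratio of mir-29a to mir-29b-1 over the 15 rescue libraries (exact permutation test over 1401400 partitions, p = 5.92e-05, adjusted over 4 ratios 0.00021). For mir-29c over mir-29b-2, which rests on the same miR-29b signal, the share was 89.7% (exact permutation p = 0.000105, adjusted 0.00021). Within the 9 mock, WT and C352A libraries the shares were 32.4% and 47.2% (exact permutation p = 0.296 and 0.143, where the smallest possible is 0.00357). Within the 6 P351A and P351A plus ALA libraries they were 79.5% and 45.7% (exact permutation p = 0.1 and 0.2, where 0.1 is the smallest possible). These 2 restrictions were chosen after seeing the data. The 6 libraries with the higher ratios were those with mir-373 at 0. The comparison within those 6 could not have passed the threshold, so it says nothing on whether ALA changed either ratio.

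The 2 ratios between members of like sequence showed no division between those sets of libraries. mir-29b-1 over mir-29b-2 was 1.03 to 1.19 in all 15 rescue libraries (27.9% of variance between groups, exact permutation p = 0.49). Reads of the same guide strand can count in both rows, so this test says nothing on whether the 2 hairpins part. mir-29a over mir-29c, which differ by 1 base in the guide strand and come from different chromosomes, was 44.0 to 113, so that mir-29c held 0.888% to 2.27% of the mir-29a value throughout (37.2% between groups, exact permutation p = 0.271, adjusted 0.361). With a pseudocount of 10 in place of 1 the groups held 77.2% and the test passed (exact permutation p = 0.0021, adjusted 0.0028); that pseudocount is near or above the lowest mir-29c values. In the other table mir-29c held 0.969% of mir-29a in parental and 1.87% in dCTT cells. Whether reads of one were counted in the other was not tested, and how mismatches were treated is not given in the sources used here.

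**Figure D4:**
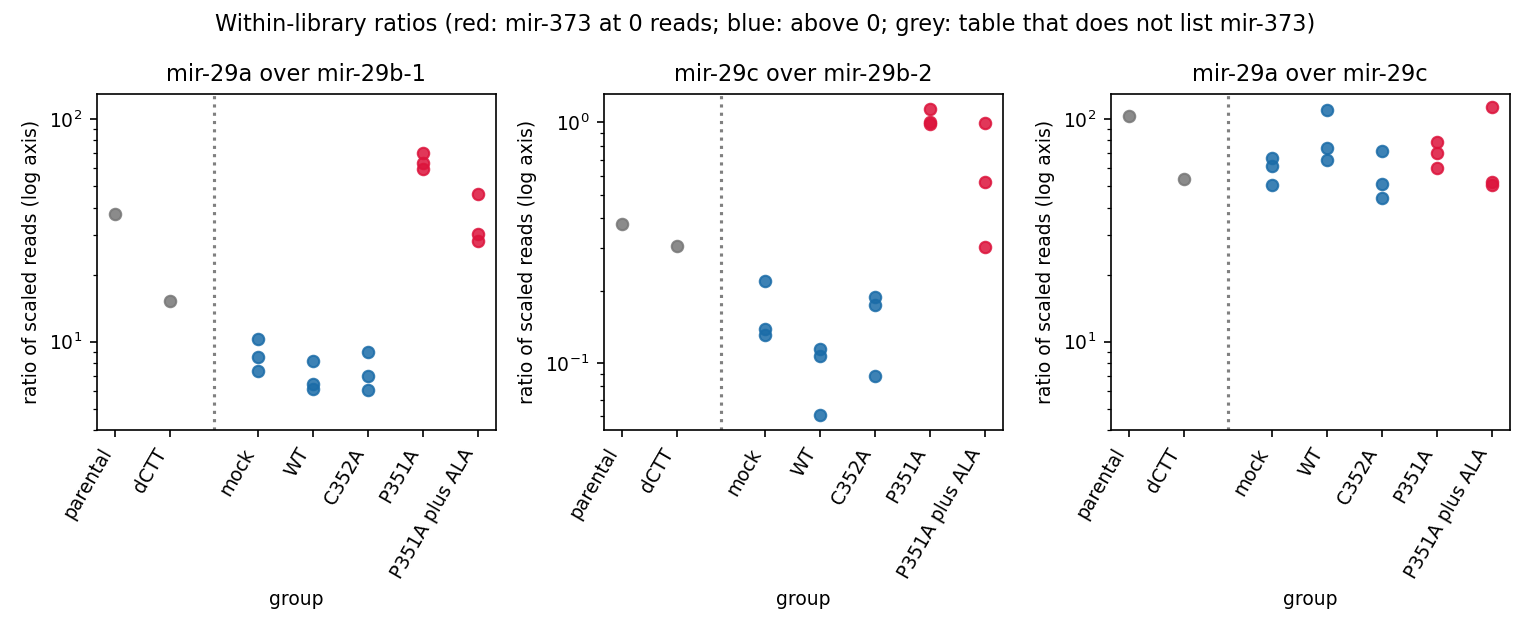
Ratio of scaled reads (log axis) of mir-29a over mir-29b-1, mir-29c over mir-29b-2 and mir-29a over mir-29c in every library, coloured by whether mir-373 was at 0 (red), above 0 (blue) or not listed (grey). P351A and P351A plus ALA lie at 28.3 to 70.2 in the first panel, above the 6.06 to 10.3 of mock, WT and C352A, while the third panel shows no such division.

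As shares of the family, with miR-29b taken as the mean of its copies, mir-29a held 96.9% to 97.4% in P351A, 94.9% to 96.2% with ALA, and 85.1% to 89.8% over mock, WT and C352A. miR-29b held 8.41% to 13.7% in the first 3 groups, 1.32% to 1.51% in P351A and 2.01% to 3.30% with ALA. mir-29c stayed between 0.780% and 1.96% in every rescue library. The parental library had 2.53% miR-29b and the dCTT library 5.83%, on 14 and 13 dCTT reads.

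Across the 15 rescue libraries mir-29a and mir-29c had a Pearson r of 0.96 and the mir-29b copies one of 1.00, on log2(value + 1). Between mir-29a or mir-29c and either mir-29b copy r was 0.44 to 0.49. These are descriptions, and libraries of a group share their rescue and their depth range. Outside the family, the patterns most like mir-29a were those of mir-429 (r = 0.96), mir-31 (0.96) and mir-34a (0.96), and those most like mir-29c were mir-128-2 (0.92), mir-590 (0.92) and mir-429 (0.91). The patterns most like both mir-29b copies were those of mir-26a-2 (0.96 and 0.95), mir-23b (0.93) and mir-23a (0.93). These hairpins were picked for their likeness over libraries that include P351A and WT, so their difference between those groups was largely set by the choice and is given as a description. On the log2 scale, P351A minus WT was -3.16 ± 0.27 (SE) for mir-26a-2, -2.89 ± 0.35 for mir-23b and -2.95 ± 0.39 for mir-23a. It was 0.40 ± 0.38 for mir-429, 0.48 ± 0.23 for mir-31 and -0.78 ± 0.46 for mir-34a, and 0.07 ± 0.33 for mir-128-2 and -0.48 ± 0.55 for mir-590.

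The hairpins of other microRNAs known to silence DNA methyltransferases or the histone methyltransferase EZH2 belong to the pathway in which miR-29 acts on DNMT3A and DNMT3B. Of 11 listed, 10 were tested. Here mir-101-1 and mir-101-2 are 1 signal, as are mir-26a-1 and mir-26a-2. In WT over mock 9 rose (median 1.95, beside 63.1% passing and a median of 1.13 over all hairpins), and in C352A over WT all 10 fell (median -2.18, beside 65.5% and -1.76). With edgeR and TMM 5 and 4 of the 10 passed in these comparisons, counted in either direction. In C352A over mock none passed in limma (median -0.44), with 4 at an unadjusted p under 0.05. In either direction, 0, 1 and 1 passed with edgeR at the deposited scale, edgeR with TMM and DESeq2. In P351A over WT 3 rose and 6 fell (54.5% of all hairpins passed), with a median of -0.95, the same as over all hairpins. mir-101-1 rose by 0.82 ± 0.31 (SE, limma adjusted p = 0.0345) and mir-143, known to target DNMT3A, by 1.37 ± 0.47 (adjusted p = 0.021). mir-26a-2, which is known to target EZH2, fell by 3.16 ± 0.27 on the log2 scale (adjusted p = 4.99e-08), and mir-342, known to target DNMT1, fell by 3.61 ± 0.51 on the log2 scale (adjusted p = 1.55e-05). With ALA over P351A 4 of the 10 rose (47.6% of all hairpins passed), among them mir-26a-2 by 1.93 and mir-342 by 3.90, and none fell.

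Hairpins known to bypass Microprocessor, such as mir-320a, are a reference for the deposited scale. Of 12 listed, 5 had enough signal to be tested. In WT over mock 1 rose and 1 fell (median 0.14), and in C352A over WT none passed in limma or had an unadjusted p under 0.05 (median -0.40). There 4 passed with edgeR and TMM, and none with edgeR at the deposited scale or DESeq2. The 4 were counted in either direction and are not a count of falls. TMM moved the median of all hairpins in that comparison from -1.76 to 0.11. In P351A over WT 3 fell (median -1.20, beside 54.5% passing and a median of -0.95 over all hairpins). With ALA over P351A all 5 rose in limma (median 1.78, beside 47.6% and 0.81). Counted in either direction, 3 passed with edgeR and TMM and 4 with DESeq2, so these counts are not counts of rises. The rises of the 5 in limma ran from 0.28 for mir-320a to 3.43 for mir-877, so the 5 do not define a common level. The centring on Microprocessor-independent hairpins took the mean of only mir-320a, mir-484, mir-877 and mir-1226. In this comparison mir-484 rose by 1.78 and mir-1226 by 1.57, so values with that centring rest on few and unlike hairpins.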

How the data were processed

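Per the labels' protocols, 17 to 30 nt RNA was cut from a 15% gel and sequenced; the submitters' processing notes name cutadapt 1.14, Bowtie2 and hg38. The authors deposited 1 table of parental and dCTT cells and 1 of rescued cells. The reference library of each (dCTT, and mock library a) holds deposited read counts, and the other deposited columns hold signal, read counts times a factor per library; the method of scaling is not given in the sources used here. All values were whole multiples of the library's step (100%, tolerance 0.001 reads), so read counts were recovered. The columns assigned to mock are named as knockout, not mock, and carry no usable replicate number, so they are called a, b and c. All 15 replicate pairs differed by more than sampling noise (chi-square over degrees of freedom from 3.98 to 198).

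limma 3.58.1 in R 4.3.3 was fitted to log2(value + 1) of the 15 rescue libraries, for 336 hairpins with a mean of at least 10, with a variance trend and Benjamini-Hochberg adjustment (2-sided, threshold 0.05); this understates changes of low hairpins. Alternatives included edgeR 4.0.16 and DESeq2 1.42.0 on the recovered counts. Scripts were tested on simulated data. The 9 comparisons have no p adjusted across them. Same-number libraries of C352A and WT deviated together (r 0.185 to 0.425 in 3 pairs); what the number marks is not given. The segments in capitals were taken from the positions of the RefSeq mature arms. Loops were also predicted with RNAfold 2.7.2, and those predictions are not reported here. The members and lists were chosen with earlier results of these data known. Named hairpins are the 4 members, the reference hairpins, the 3 most correlated outside the family for each member, and members of the list above.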

Additional observations from a re-analysis of the deposited data

How the results depend on the processing

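Of 596 alternative values for single members, 487 kept their direction and side of the threshold, 49 gained a call, 34 lost one and 26 turned sign. Counts of members called, in either direction, moved from those of the main limma fit as follows. Causes were not tested. The share of all tested hairpins called under each setting was not counted, so these counts have no background beside them. With equal totals, 0 were called in WT over mock, 1 in P351A plus ALA over mock, 2 in C352A over WT, 3 in P351A plus ALA over WT and 3 in P351A over C352A. With edgeR and TMM, 0 were called in WT over mock, 0 in C352A over WT, 4 in P351A over WT, 2 in P351A plus ALA over WT and 4 in P351A over C352A. Centred on the median hairpin, 4 were called in P351A over WT, 4 in P351A plus ALA over WT, 0 in P351A plus ALA over P351A and 4 in P351A over C352A. Centred on Microprocessor-independent hairpins, 2 were called in P351A over mock, both higher, where the main fit had 1 higher and 2 lower. With that centring 2 were called in P351A plus ALA over WT, both lower, and 0 in P351A plus ALA over P351A. Without the filter 1 was called in P351A over mock, and with pseudocount 10, 2 in P351A plus ALA over WT. On recovered counts, edgeR at the deposited scale called 1 in P351A plus ALA over WT and 4 in P351A plus ALA over P351A, and DESeq2 called 3 and 4. Leaving out 1 library gave 1 to 3 in P351A over mock, 0 to 2 in P351A plus ALA over WT and 2 to 4 in P351A plus ALA over P351A.

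Sign turns on the log2 scale were as follows. mir-29c in WT over mock was -0.28 with equal totals and -0.33 with TMM. In C352A over mock, mir-29b-1 was 0.049 centred on the median and 0.024 with TMM, and mir-29b-2 0.063 and 0.035. In P351A plus ALA over mock, both mir-29b rows were -0.12 centred on the median, -0.74 with equal totals and -0.33 centred on Microprocessor-independent hairpins, and with TMM mir-29b-1 was -0.17 and mir-29b-2 -0.16. In P351A over WT, mir-29a was -0.14 with edgeR at the deposited scale and with DESeq2, and leaving out 1 library gave -0.25 to 0.45 for mir-29a and -0.23 to 0.72 for mir-29c. In P351A plus ALA over P351A, mir-29a was -0.049 centred on the median, -0.67 centred on Microprocessor-independent hairpins and -0.055 with TMM, and mir-29c was -0.0043 and -0.63 under the first 2. Parental over dCTT was 1.59 for mir-29a, 0.21 for mir-29b-1, 0.24 for mir-29b-2 and 0.34 for mir-29c centred on the median; 1.72, 0.43, 0.47 and 0.76 with equal totals; and 3.35 for mir-29c with pseudocount 10. The share of ratio variance between groups was 32.4% and 79.5% (mir-29a over mir-29b-1) and 47.2% and 45.7% (mir-29c over mir-29b-2) within mock, WT and C352A and within P351A and P351A plus ALA. It was 77.2% for mir-29a over mir-29c with pseudocount 10, where the test passed (exact permutation, adjusted p = 0.0028).

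Under the replicate block, all 4 members stayed called in C352A over WT (mir-29c at -1.87, adjusted p = 0.0174) and mir-29a passed in P351A plus ALA over P351A (adjusted p = 0.0156); no other call changed in the 5 comparisons with numbers. Same-number deviations had r of -0.345 to -0.135 in P351A over WT, -0.196 to 0.216 in P351A plus ALA over WT, -0.034 to 0.259 in P351A plus ALA over P351A and -0.203 to -0.056 in P351A over C352A. Mock has no usable numbers, so no block was possible there. Depth limits mir-29c most, with 3 reads in the lowest mock library.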
